A study of Mus musculus with 31 samples.

Results

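Nr1d1 and Nr1d2, which encode the nuclear receptors REV-ERBα and REV-ERBβ, and Rora and Rorb, which encode the nuclear receptors RORα and RORβ, were followed across 31 mouse brain libraries. They were chosen by name, 4 genes of the 48795 in the count table, and all 4 were among the 19529 genes with enough counts to be tested. Total RNA from homogenised half-brain samples was sequenced for 13 control samples and 18 deltamethrin samples. Deltamethrin is a pyrethroid insecticide that holds voltage-gated sodium channels open, and the title of the series describes a developmental exposure and names circadian rhythms. For a sample the labels give the tissue (brain) and the agent (control or deltamethrin). Strain, sex, age, dose, route, litter and time of collection are not given in the sources used here, and the labels do not say what the control samples received. Whether the samples are separate animals is not stated either, so each p-value measures the spread between these samples.

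REV-ERBs and RORs bind the same DNA element, an AGGTCA core after an AT-rich stretch, with opposite effects. REV-ERBs recruit the NCoR-HDAC3 corepressor complex and silence the gene, whereas RORs recruit coactivators, and in the molecular clock this pair sets the daily rhythm of Arntl (BMAL1). Nr1d1 and Nr1d2 are themselves driven by CLOCK and BMAL1 through E-boxes, which closes a feedback loop. Rora is needed for the survival and maturation of cerebellar Purkinje cells and is also made in thalamus, cortex and glia, and Rorb marks layer 4 of sensory cortex, the retina and the suprachiasmatic nucleus.

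The promoters of the REV-ERB pair are shown because the receptors share the AGGTCA core and 1 of these promoters holds it. Each line gives the 250 bases before the RefSeq start (GRCm38.p6, minus strand), 5′ to 3′, and capitals mark the AGGTCA core.
Nr1d1 (chr11:98775378-98775627): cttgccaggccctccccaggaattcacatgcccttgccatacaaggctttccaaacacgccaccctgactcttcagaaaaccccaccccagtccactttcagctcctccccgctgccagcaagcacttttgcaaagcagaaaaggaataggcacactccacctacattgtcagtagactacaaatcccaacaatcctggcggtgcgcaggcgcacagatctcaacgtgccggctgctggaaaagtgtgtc
Nr1d2 (chr14:18239107-18239356): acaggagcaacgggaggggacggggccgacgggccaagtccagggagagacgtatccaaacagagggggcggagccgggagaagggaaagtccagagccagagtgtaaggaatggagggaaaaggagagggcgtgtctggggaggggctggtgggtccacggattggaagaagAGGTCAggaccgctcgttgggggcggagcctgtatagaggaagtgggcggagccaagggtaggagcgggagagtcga
GC content was 54.8% in the Nr1d1 stretch and 63.6% in that of Nr1d2. In windows from 250 bases before to 50 bases after the start, both strands were searched for the E-box CACGTG, the D-box TTATGNAA, the core AGGTCA and the full ROR response element. In the search for the full element, the core could start with A or G. RefSeq held 1 such window each for Nr1d1, Nr1d2 and Rora and 2 for Rorb. Only the core was found, 1 time, on the gene's own strand in the Nr1d2 window, starting at base -77 relative to the start. Of 32851 promoter windows of the same length, 16.3% held the core, 7.15% the E-box, 3.38% the D-box and 0.384% the full element. A match is a description of the letters and does not show binding.

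The 4 genes differ greatly in size. In GENCODE M21 (GRCm38), Nr1d1 (ENSMUSG00000020889) lies on chromosome 11 from 98767932 to 98775333 on the minus strand, with 3077 exonic bases. Nr1d2 (ENSMUSG00000021775) lies on chromosome 14 from 18204054 to 18239127 on the minus strand, with 5409 exonic bases. Rora (ENSMUSG00000032238) lies on chromosome 9 from 68653786 to 69388246 on the plus strand, with 13071 exonic bases in a span of 734461 bases. Rorb (ENSMUSG00000036192) lies on chromosome 19 from 18930605 to 19111196 on the minus strand, with 11076 exonic bases. All are protein coding. The 3′ end of Nr1d1 overlaps the oppositely transcribed Thra, the thyroid hormone receptor α gene, over 263 exonic bases (8.55% of Nr1d1 exon). Use of strand in counting is not given in the sources used here, so reads from those bases cannot be assigned to either gene with certainty. Thra was far more abundant (549 ± 79.3 CPM in control and 537 ± 48.7 CPM in deltamethrin, SD, n = 13 and 18; CPM is counts per 1000000 of the TMM-scaled library size). Across libraries Nr1d1 and Thra had r = 0.423 (permutation p = 0.0172; rho = 0.311, p = 0.0889), which came to 0.234 without the 2 libraries farthest from the median. The antisense RNA Gm15511 shares 82 exonic bases with Rora and had at most 10 counts in a library.

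Per kilobase of exon, the REV-ERBs were more abundant than Rora and Rorb. The length is the union of exons over all annotated transcripts (6 for Rora, 5 for Rorb), and which transcripts these samples used was not tested. Without division by length the order differed. Mean CPM in control was 62.9 for Nr1d1, 101 for Nr1d2, 97.3 for Rora and 49.2 for Rorb. In deltamethrin it was 62.3, 99.1, 113 and 54.9. Nr1d1 averaged 20.3 ± 4.16 CPM per kb (SD, n = 31, range 14.1 to 30.7), Nr1d2 18.5 ± 1.62, Rora 8.15 ± 2.43 and Rorb 4.74 ± 1.36. Nr1d1 and Nr1d2 overlapped, with Nr1d1 higher in 21 of 31 libraries. Nr1d2 exceeded Rora in 31 of 31 libraries (median ratio 2.32), and Rora exceeded Rorb in 31 of 31 (median ratio 1.70). Nr1d2 was also the steadiest, its highest library only 1.45-fold above its lowest, against 2.17-fold for Nr1d1, 2.98-fold for Rora and 2.80-fold for Rorb.

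The comparison of deltamethrin with control asked whether exposure altered the 4 receptors. None of them passed, either after adjustment over all genes or at an unadjusted p-value under 0.05 (0 of 4, against 4.37% of all genes tested at that unadjusted threshold and 0% after adjustment, edgeR quasi-likelihood test). The REV-ERB levels nearly coincided, and the ROR means were higher in deltamethrin by amounts smaller than their spread.

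Nr1d1 ran from 45.2 through a median of 59.5 to 85.8 CPM in control and from 43.5 through 60.1 to 94.5 CPM in deltamethrin (506 to 3818 counts per library). The groups overlapped almost fully, with 16 of 18 deltamethrin libraries inside the control range. Its log2 fold change was -0.01 ± 0.10 (SE, 95% interval -0.21 to 0.19, edgeR adjusted p = 0.977). Nr1d2 ran from 91.2 through 103 to 110 CPM in control and from 82.8 through 99.6 to 120 CPM in deltamethrin. Its 4 lowest libraries were all deltamethrin and so was its highest, while 12 of 18 lay inside the control range. Its log2 fold change was -0.03 ± 0.05 (SE, 95% interval -0.14 to 0.07, edgeR adjusted p = 0.884), the narrowest interval of the 4.

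Rora ran from 64.1 through a median of 98.4 to 123 CPM in control and from 64.5 through 112 to 191 CPM in deltamethrin. The groups began at the same level, and 7 deltamethrin libraries lay above every control. Its mean was 97.3 ± 18.9 CPM in control and 113 ± 37.5 CPM in deltamethrin (SD), a log2 fold change of 0.22 ± 0.14 (SE, 95% interval -0.06 to 0.50, edgeR adjusted p = 0.813). Rorb ran from 34.0 through 49.5 to 68.6 CPM in control and from 32.0 through 49.9 to 89.7 CPM in deltamethrin. Its medians nearly coincided and the deltamethrin range was wider, mainly at its upper end, with a log2 fold change of 0.15 ± 0.14 (SE, 95% interval -0.11 to 0.42, edgeR adjusted p = 0.823). The same 3 libraries, deltamethrin replicates 1, 2 and 3, were the highest 3 of 31 for both genes, at 163, 170 and 191 CPM of Rora and at 83.7, 77.8 and 89.7 CPM of Rorb. The intervals leave room for a rise of Rora of up to 0.50 on the log2 scale, so a modest difference was not detectable with this spread.

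**Figure D1:**
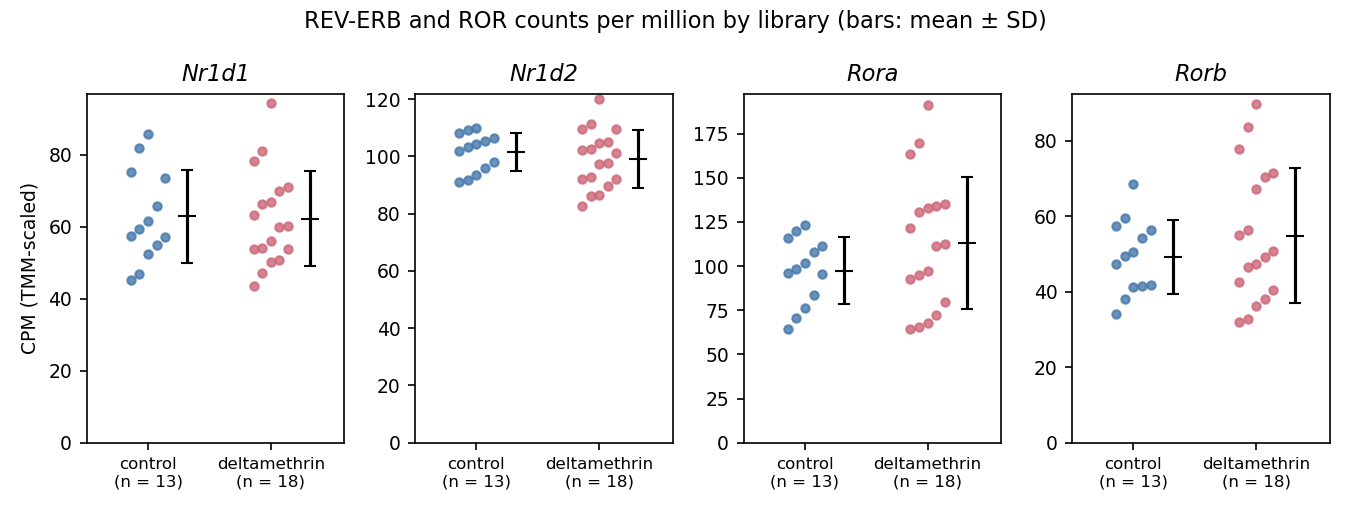
Each point is the TMM-scaled CPM (vertical axis, starting at 0) of Nr1d1, Nr1d2, Rora or Rorb in 1 library, for 13 control and 18 deltamethrin libraries, with the mean ± SD beside it. The groups overlap for all 4 genes, and the upper Rora points of deltamethrin reach 191 CPM against 123 CPM in control.

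The wider pathway was read from 8 lists of 69 genes in all. Of these, 0 passed after adjustment over all genes (smallest adjusted p = 0.441 by edgeR, for Per2). The 10 clock genes with E-boxes or D-boxes held the lowest p-values: 5 had an unadjusted p-value under 0.05, all lower in deltamethrin (2.37% of all genes tested were lower at that threshold), with a median log2 fold change of -0.14 against 0.0014 over all genes. Per2, a repressor of CLOCK-BMAL1, averaged 26.7 ± 4.71 CPM in control against 20.9 ± 2.10 CPM in deltamethrin (log2 fold change -0.35 ± 0.07, SE). Ciart, another repressor, had -0.42 ± 0.09, Dbp, a D-box activator, -0.33 ± 0.08, and Per1 -0.28 ± 0.09, each with an edgeR adjusted p of at least 0.612. This list was known from earlier results of these data to be lower, so its count is no independent evidence. Nr1d1 and Nr1d2 share E-box control with these genes but had log2 fold changes of -0.01 and -0.03, and whether they differ from the list was not tested.

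Among the 5 clock genes with ROR response elements, which the 4 receptors act on, 1 had an unadjusted p-value under 0.05, where 4.37% of all genes tested did (2% higher and 2.37% lower). Arntl, the gene for BMAL1, averaged 18.6 ± 1.53 CPM in control against 20.2 ± 2.09 CPM in deltamethrin (log2 fold change 0.12 ± 0.05, edgeR adjusted p = 0.813). Clock, Npas2, Cry1 and Nfil3 had log2 fold changes from -0.18 to 0.11, none at an unadjusted p-value under 0.05. Of 11 corepressor and turnover genes of the REV-ERBs 1 reached that threshold, the ubiquitin ligase gene Siah2 (-0.13 ± 0.06, unadjusted p = 0.0493, edgeR adjusted p = 0.813), and the core members of the corepressor complex, Ncor1 and Hdac3, chosen after their values had been seen, had 0.08 ± 0.09 and -0.13 ± 0.07. No ROR coactivator (0 of 7) reached it, and the smallest p-value was that of Ppargc1a, which encodes PGC-1α (0.12 ± 0.08). Of the 12 genes of the making and breakdown of heme, the ligand of the REV-ERBs, 0 reached it although 11 had negative fold changes (median -0.08). Likewise 0 of 6 tested genes of sterol and oxysterol synthesis, 0 of 5 other reported targets and 0 of 11 tested receptors of the same nuclear receptor subfamily reached it. Their smallest p-values were those of the oxysterol hydroxylase gene Cyp7b1 (-0.07 ± 0.06), the lipid droplet gene Plin2 (0.14 ± 0.08) and the liver X receptor gene Nr1h2 (-0.11 ± 0.07).

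Libraries differed in composition more than groups did. Total counts ran from 17570311 to 38680621, and the mitochondrial ribosomal RNAs took 7.32% to 40.2% of counts, highest in control replicate 2, which stood apart. A long-gene score, added after the data had been seen, was the mean log2 CPM of the longest 2989 protein-coding genes (exons of at least 7597 bases) minus that of the shortest 2989 (at most 2471 bases), each gene centred on its mean over libraries. The receptors and the genes of the marker and pathway lists were in neither set. The score ran from -0.39 to 0.62, with a control mean of -0.07 ± 0.19 and a deltamethrin mean of 0.05 ± 0.31 (SD, n = 13 and 18, two-sided permutation p = 0.212). Deltamethrin replicates 1, 2 and 3 had the highest 3 scores of the 31 libraries. Across libraries the score had r = -0.701 with the log2 mitochondrial rRNA share, given with no test, so removing the one and removing the other are not independent corrections. None of 18 marker lists of brain regions and cell types, nor the mitochondrial rRNA share, differed between groups (19 tests, 0 with an adjusted permutation p under 0.05, smallest 0.607). Positive fold changes were those of 9864 of 19529 genes tested, and many lists had 1 sign throughout. All astrocyte (7), cerebellar granule cell (6), Purkinje cell (5) and hypothalamus (6) genes had positive fold changes, and all tested striatum (10), choroid plexus (8), blood (5) and interneuron (4) genes negative ones. At an unadjusted p-value under 0.05 were 3 of the choroid plexus genes, 1 of the striatum genes and none of the others in these 8 lists. The remaining marker lists held 1 microglia gene, lower, and 1 endothelium gene, higher, at that threshold. Of all genes tested, 2.37% were lower and 2% higher at it. Astrocyte genes had summed levels from 1420 to 2610 CPM in control and from 1370 to 4410 CPM in deltamethrin. In such bulk samples more cells of a type and more RNA per cell cannot be told apart.

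Rora, Rorb and Nr1d2 followed the long-gene score closely. Rora rose with it (r = 0.90 by Pearson and rho = 0.912 by Spearman, both with p = 1e-05, the smallest that 100000 permutations give, and adjusted p = 1.33e-05 for r over 4 genes). Without the 2 libraries farthest from the median score, deltamethrin replicates 1 and 2, r was 0.88. Control libraries alone gave 0.709 and deltamethrin libraries alone 0.947. Rorb did likewise (r = 0.873, rho = 0.840, each p = 1e-05, adjusted 1.33e-05; 0.839 without the 2 farthest). For Nr1d2 r was 0.721 (p = 1e-05, adjusted 1.33e-05) with rho of 0.695 (p = 4e-05), and 0.632 without the 2 farthest. Nr1d1 followed it least (r = 0.503, adjusted p = 0.00367; rho = 0.516, p = 0.00295; r = 0.452 without the 2 farthest). With the score removed, the r of Nr1d1 with the overlapping Thra was 0.604, given with no test, against 0.423 before. Whether the r of Nr1d1 differs from those of the others was not tested. Rora (13071 exonic bases) and Rorb (11076) are in the length range of the long genes that built the score (at least 7597). The share of all genes, or of long genes, with such an r was not computed. A close r with the score is thus not shown to be particular to these receptors.

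**Figure D2:**
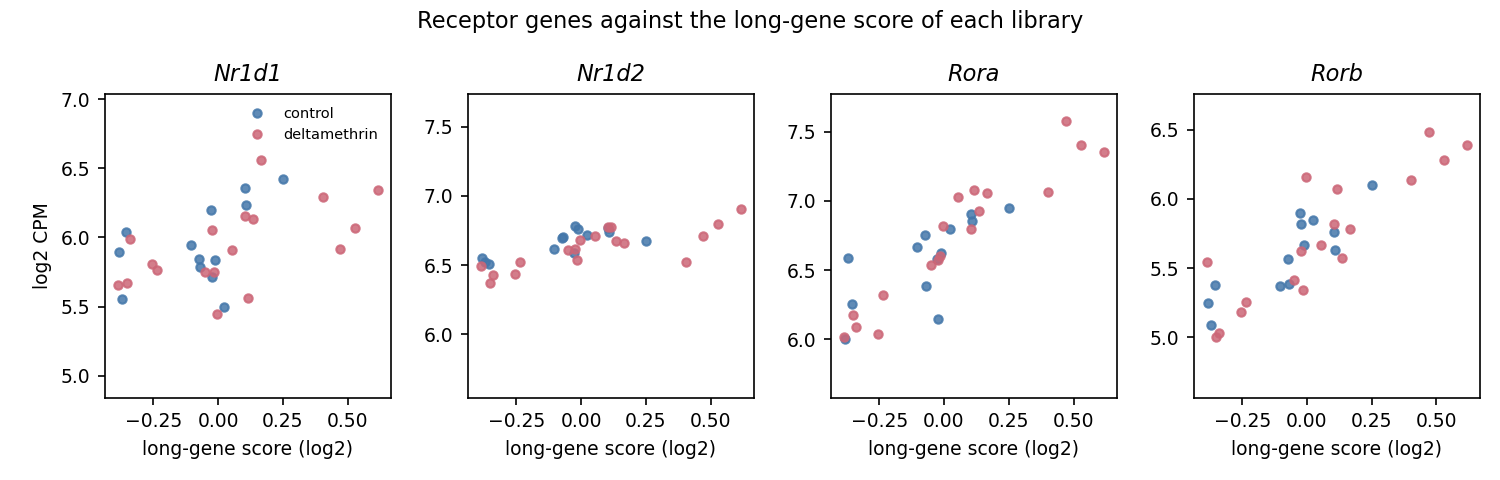
Each point is 1 library: its long-gene score on the horizontal axis (log2 scale) and its log2 CPM of Nr1d1, Nr1d2, Rora or Rorb on the vertical axis, all 4 panels spanning the same number of log2 units, with 13 control and 18 deltamethrin libraries. Rora and Rorb climb along the score (r = 0.90 and 0.873), and the 3 deltamethrin libraries at the far right of the Rora panel with the highest Rora levels are replicates 1, 2 and 3.

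The fold changes of the RORs moved with this score. With the long-gene score as a covariate, the log2 fold change of Rora was -0.01 ± 0.07 and that of Rorb -0.04 ± 0.07 (SE, edgeR adjusted p = 1 for both), against 0.22 ± 0.14 and 0.15 ± 0.14 without it. With the astrocyte score as a covariate they were 0.02 ± 0.09 and -0.02 ± 0.10 (edgeR adjusted p = 0.995 and 0.996). Both covariates were added after the data had been seen, and the astrocyte genes had a median of 6233 exonic bases against 4414 over all protein-coding genes. With the cerebellar granule cell score they were 0.13 ± 0.13 and 0.12 ± 0.14, and with the mitochondrial rRNA share 0.15 ± 0.12 and 0.11 ± 0.12. The striatum score as a covariate also lowered that of Rorb, to 0.06 ± 0.14, and gave 0.15 ± 0.14 for Rora (edgeR adjusted p = 0.980 and 0.973). Nr1d2 came to -0.08 ± 0.04 with the long-gene score (unadjusted p = 0.0265, edgeR adjusted p = 1), a difference that did not hold after adjustment.

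**Figure D3:**
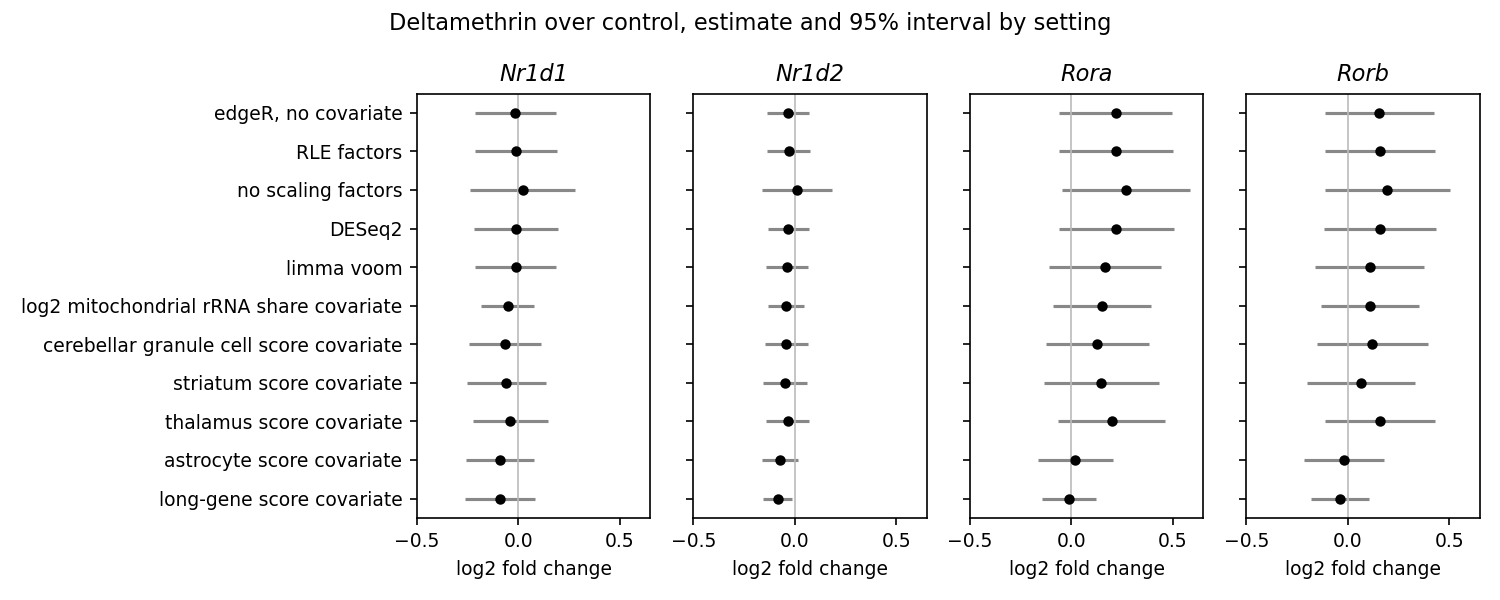
Points are log2 fold changes, deltamethrin over control, of the 4 receptor genes with 95% intervals, for 11 ways of scaling, testing or adjusting. The Nr1d1 intervals all span 0, and the Rora estimate goes from 0.22 to -0.01 when the long-gene score is a covariate.

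Across libraries Rora, Rorb and Nr1d2 varied together. Of 6 pairs, 4 passed after adjustment. Rora and Rorb were the closest pair (r = 0.802, rho = 0.775, each permutation p = 1e-05, adjusted 6e-05 for r; 0.732 without the 2 farthest libraries, 0.474 in control alone and 0.886 in deltamethrin alone). Nr1d2 went with Rorb (r = 0.714, p = 2e-05, adjusted 6e-05; rho = 0.704, p = 5e-05; 0.686 without the 2 farthest) and with Rora (r = 0.678, p = 7e-05, adjusted 0.00014; rho = 0.626, p = 0.00027; 0.675 without the 2 farthest). Nr1d1 passed only with Rora (r = 0.393, p = 0.0289, adjusted 0.0433; rho = 0.425, p = 0.0178; 0.438 without the 2 farthest). The 2 REV-ERBs did not pass as a pair (r = 0.242, p = 0.191, adjusted 0.191; rho = 0.190, p = 0.306; 0.213 without the 2 farthest). After removing the long-gene score from each gene, 0 of the 6 pairs passed, and Rora with Rorb came to r = 0.077 (p = 0.681, adjusted 0.681; rho = 0.123, p = 0.508; 0.064 without the 2 farthest). Removing the mitochondrial rRNA share instead left 3 of the 6 pairs passing. These were Rora with Rorb (r = 0.721, adjusted permutation p = 6e-05), Nr1d2 with Rorb (0.611, adjusted 0.00087) and Nr1d2 with Rora (0.549, adjusted 0.00268).

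Correlations with brain region and cell type markers were computed for each member against 18 list scores and the log2 mitochondrial rRNA share, 76 in all, of which 32 passed after adjustment (9 for Nr1d1, 6 for Nr1d2, 9 for Rora and 8 for Rorb). After removing the long-gene score 10 of 76 passed, 6 of them among the 32. The share of all genes that would pass was not computed, so these counts do not show that marker lists passed more often than other genes. A score is the mean log2 CPM of the list's genes. All members fell as the mitochondrial rRNA share rose, Nr1d1 the most (r = -0.768, adjusted p = 0.00019, rho = -0.787, each unadjusted permutation p = 1e-05; -0.737 without the 2 farthest libraries). The other 3 had r from -0.566 to -0.510. With the long-gene score removed Nr1d1 kept a negative r (-0.674, p = 4e-05, adjusted 0.00304; rho = -0.714, p = 2e-05; -0.634 without the 2 farthest), Nr1d2 had -0.010, and the sign turned for Rora (0.212) and Rorb (0.264), with adjusted p of 0.999, 0.541 and 0.431 for these 3.

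Rora and Rorb followed the astrocyte score most closely of all lists. For Rora r was 0.797 (adjusted p = 0.00019, rho = 0.781, each permutation p = 1e-05; 0.716 without the 2 farthest libraries, 0.528 in control alone and 0.897 in deltamethrin alone). For Rorb r was 0.731 (p = 1e-05, adjusted 0.00019; rho = 0.676, p = 5e-05; 0.636 without the 2 farthest). Nr1d1 passed against it too (r = 0.556, p = 0.00104, adjusted 0.00659; rho = 0.613, p = 0.00041; 0.653 without the 2 farthest). Its r came to 0.286 with the long-gene score removed and to -0.273 with the mitochondrial rRNA share removed (adjusted permutation p = 0.397 and 0.434). All 7 astrocyte genes had a positive r with Rora. Slc1a2, the main glutamate transporter, with 13133 exonic bases, had r = 0.882, and Aqp4, with 6233, had 0.844. Slc1a3, with 8537, had 0.802, Gja1, with 10257, had 0.690 and Aldh1l1, with 4516, had 0.537. Gfap, with 4218, had 0.205 and Gjb6, with 2674, had 0.270. After removing the long-gene score, the astrocyte score had r = 0.17 with Rora and -0.01 with Rorb, and neither passed. The single astrocyte genes then ran from -0.165 to 0.597 (Aqp4) with Rora and from -0.465 to 0.656 (Slc1a2) with Rorb, given with no test. Rora kept both astrocytes (r = 0.724) and interneurons (-0.748) with the mitochondrial rRNA share removed, each with p = 1e-05 and adjusted p = 0.00036. Rorb kept astrocytes (0.638, adjusted p = 0.00216) and oligodendrocytes (-0.554, adjusted p = 0.0238). The oligodendrocyte relation of Rorb was -0.439 before any removal (adjusted permutation p = 0.0362). With the long-gene score removed it was -0.413 (adjusted permutation p = 0.133), which did not pass. The interneuron score went the opposite way for Rora (r = -0.768, adjusted p = 0.00019, rho = -0.769, each permutation p = 1e-05; -0.706 without the 2 farthest). Of its 4 genes 3 had a negative r with Rora, the short neuropeptide genes Npy (-0.853, 566 exonic bases) and Sst (-0.794, 721 exonic bases) and Vip (-0.363, 3402 exonic bases), while Lhx6 (4805 exonic bases) had 0.126. That relation was r = -0.562 after removing the long-gene score (p = 0.00079, adjusted 0.0141; rho = -0.546, p = 0.00174; -0.542 without the 2 farthest).

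Cerebellar granule cell markers went with both Nr1d1 and Rora. For Nr1d1 r was 0.494 (p = 0.00385, adjusted 0.014; rho = 0.627, p = 0.00022; 0.602 without the 2 farthest libraries, control replicate 1 and deltamethrin replicate 14). For Rora r was 0.523 (p = 0.00181, adjusted 0.00983; rho = 0.513, p = 0.00332; 0.428 without the same libraries). Against the Purkinje cell score the r of Rora was 0.49 (p = 0.00464, adjusted 0.0141; rho = 0.445, p = 0.0122; 0.350 without the same libraries). None of these 3 relations passed with the mitochondrial rRNA share removed: granule cells had r = 0.195 with Nr1d1 and 0.336 with Rora (adjusted p = 0.581 and 0.291), and Purkinje cells 0.351 with Rora (adjusted p = 0.269). All 6 granule cell genes and all 5 Purkinje cell genes had a positive r with Rora before and after the long-gene score was removed. Removing that score gave Nr1d1 an r of 0.392 with granule cells (p = 0.0292, adjusted 0.171; rho = 0.432, p = 0.0155; 0.486 without the 2 farthest), which did not pass. For Rora it gave 0.564 for Purkinje cells (p = 0.00142, adjusted 0.018; rho = 0.388, p = 0.0319) and 0.509 for granule cells (p = 0.00542, adjusted 0.0458; rho = 0.262, p = 0.154). Without the same 2 libraries these came to 0.205 and 0.067, so after removal the relations rested on those libraries. They had the lowest summed granule cell markers of their groups, 39.0 CPM in control and 58.4 CPM in deltamethrin, against group medians of 271 and 297 CPM. Rorb passed against neither score (r = 0.222 and 0.185, adjusted p = 0.339 and 0.445; rho = 0.316, p = 0.0850, and 0.191, p = 0.300).

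The cortical relations passed for Nr1d1 and in part for Rorb, and whether the r values differ between receptors was not tested. Nr1d1 followed the layer 4 score (r = 0.662, p = 4e-05, adjusted 0.000608; rho = 0.683, p = 4e-05; 0.630 without the 2 farthest libraries) and the cortical projection neuron score (r = 0.645, p = 0.00012, adjusted 0.00152; rho = 0.635, p = 0.00021; 0.613 without the 2 farthest). Both passed after removing the long-gene score, at 0.563 (p = 0.00093, adjusted 0.0141; rho = 0.621, p = 0.00023) and 0.626 (p = 0.00016, adjusted 0.00608; rho = 0.638, p = 0.00015). With the mitochondrial rRNA share removed instead, the layer 4 relation came to 0.353 (p = 0.0512, adjusted 0.269) and no longer passed, and that with projection neurons to 0.510 (p = 0.00343, adjusted 0.0494). Among their genes the highest r with Nr1d1 were those of Cux2 (r = 0.769), Whrn (0.755), Scnn1a (0.744) and Slc30a3 (0.734), whereas Rspo1 had -0.112 and Neurod6 -0.331, so the genes of these lists did not all go the same way. Rorb, the layer 4 gene, also followed the layer 4 score (r = 0.501, p = 0.00423, adjusted 0.0140; rho = 0.525, p = 0.00288; 0.516 without the 2 farthest), but 0.24 remained after removing the long-gene score, which did not pass. Of the 3 layer 4 genes, Rspo1, singled out after its value had been seen, then had r = 0.710 with Rorb, and Scnn1a and Whrn had -0.205 and -0.040. Rora had r = -0.564 with cortical projection neurons after removal (p = 0.00072, adjusted 0.0141; rho = -0.538, p = 0.00196; -0.670 without the 2 farthest), against -0.025 before (p = 0.895, adjusted 0.907; rho = -0.019, p = 0.919; -0.182 without the 2 farthest). With the mitochondrial rRNA share removed it was -0.393 (p = 0.0292, adjusted 0.211), which did not pass. After removal of the long-gene score Rorb also passed against the thalamus score (r = -0.529, p = 0.00232, adjusted 0.0252; rho = -0.511, p = 0.00371; -0.536 without the 2 farthest) and the hippocampus score (r = -0.477, p = 0.0065, adjusted 0.0494; rho = -0.478, p = 0.00723; -0.511 without the 2 farthest). Before removal these 2 relations of Rorb had r = -0.037 and -0.178 (adjusted permutation p = 0.866 and 0.451). With the mitochondrial rRNA share removed instead they had -0.3 and -0.252 (adjusted permutation p = 0.358 and 0.45). They thus passed under 1 of the 2 corrections only. Rora passed against microglia after removal of the long-gene score (r = -0.521, p = 0.00357, adjusted 0.0339), but rho was -0.174 (p = 0.347) and r was -0.128 without the 2 farthest libraries, so that relation rested on them. With the long-gene score removed Nr1d2 passed against no list, and the same was so with the mitochondrial rRNA share removed. Without either correction Nr1d2 had passed against astrocytes (r = 0.571, p = 0.00084, adjusted 0.00646; rho = 0.535, p = 0.00234; 0.544 without the 2 farthest) and microglia (0.410, adjusted p = 0.048). With a negative sign it had passed against interneurons (-0.50), blood (-0.525) and pineal and retina (-0.505), with adjusted p from 0.0126 to 0.014 for these 3. Blood also passed for Nr1d1 (-0.591), Rora (-0.560) and Rorb (-0.547), with adjusted permutation p from 0.00608 to 0.00813. The pineal and retina score was 1 gene, Sag, of 4 listed, and the list summed to at most 2.97 CPM. It also passed for Rora (-0.571, adjusted permutation p = 0.00646).

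**Figure D4:**
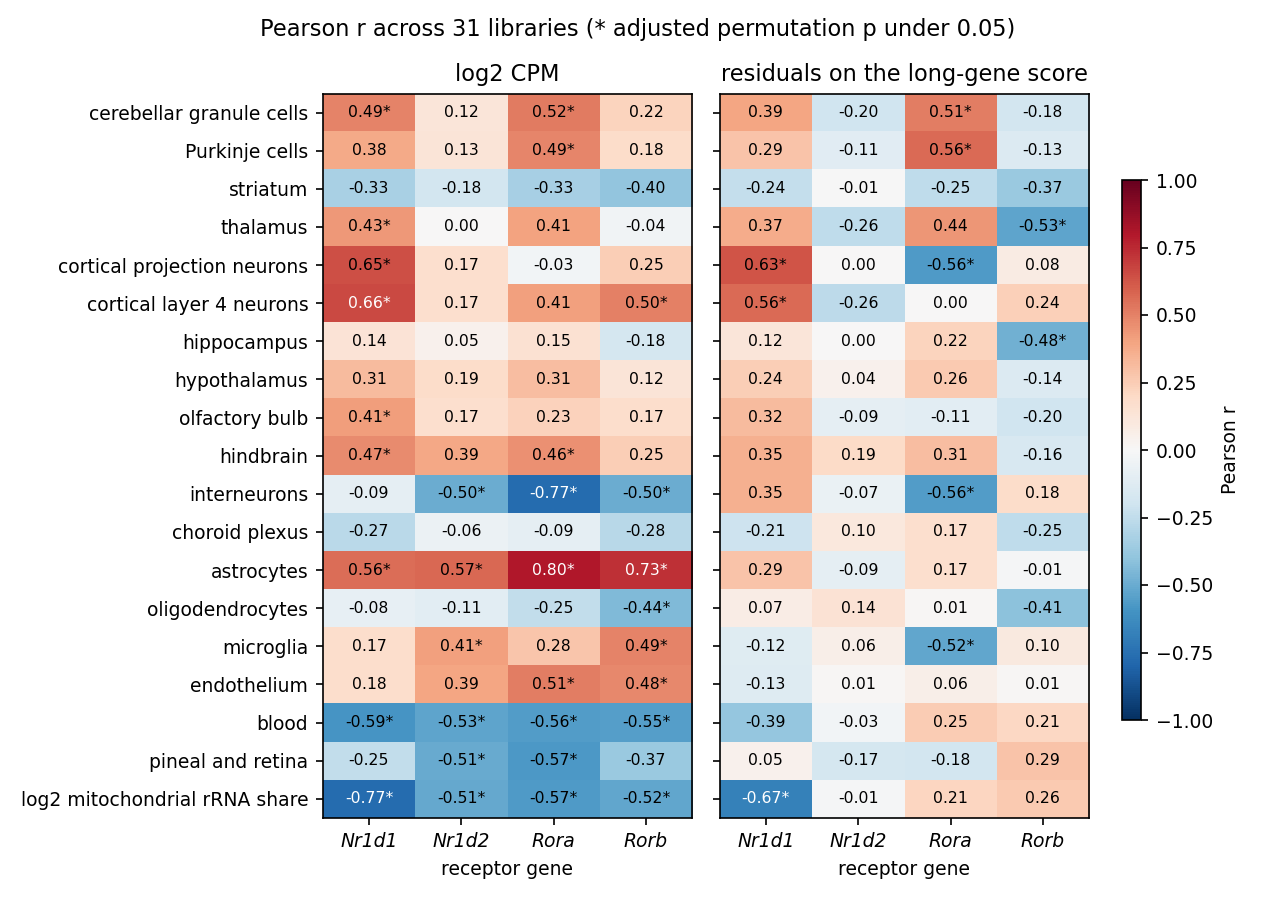
Cells give Pearson r across 31 libraries between each receptor gene (columns) and each marker score or the log2 mitochondrial rRNA share (rows), on log2 CPM at the left and after removing the long-gene score at the right, with an asterisk where the adjusted permutation p is under 0.05. The strong astrocyte row of Rora and Rorb (0.80 and 0.73) fades to 0.17 and -0.01 at the right, whereas the cortical projection neuron cell of Nr1d1 goes from 0.65 to 0.63.

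Against 15 clock genes, 60 correlations were computed and 19 passed after adjustment. The share of all genes that would pass was not computed. Over the longest 2989 protein-coding genes the median r was 0.549 with Rora, 0.501 with Rorb, 0.421 with Nr1d2 and 0.274 with Nr1d1. Over the shortest 2989 it was -0.502, -0.492, -0.387 and -0.278. Whether clock genes passed more often than other genes was not tested. Nr1d1 went most closely with Cry2, a cryptochrome repressor (r = 0.891, adjusted p = 7.5e-05, rho = 0.914, each permutation p = 1e-05; 0.907 without the 2 farthest libraries), and with Bhlhe40, a repressor of E-box genes (r = 0.888, adjusted p = 7.5e-05, rho = 0.888, each permutation p = 1e-05; 0.884 without the 2 farthest). Rora and Rorb went most closely with Clock, a gene with 13727 exonic bases (r = 0.896 and 0.868, adjusted p = 7.5e-05, rho = 0.852 and 0.858, each permutation p = 1e-05; 0.867 and 0.826 without the 2 farthest). Both went against Dbp, with r = -0.664 for Rora (p = 5e-05, adjusted 0.0003; rho = -0.589, p = 0.00061; -0.567 without the 2 farthest) and -0.690 for Rorb (p = 5e-05, adjusted 0.0003; rho = -0.596, p = 0.00047; -0.590 without the 2 farthest).

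After removing the long-gene score 12 of 60 passed, of which 6 were among the 19. Nr1d1 kept Cry2 (r = 0.851) and Bhlhe40 (r = 0.863), each with permutation p = 1e-05 and adjusted p = 0.0003 and with rho of 0.856 and 0.858 (each p = 1e-05). Its relation to Per1 was 0.616 (p = 0.00026, adjusted 0.0039; rho = 0.613, p = 0.00025; 0.605 without the 2 farthest), and Dbp and Ciart passed at 0.471 and 0.487 (adjusted p = 0.0433 and 0.0393; rho = 0.437, p = 0.0148, and 0.469, p = 0.00843; 0.405 and 0.449 without the 2 farthest). Tef and Bhlhe41 also passed, at 0.608 and 0.579 (adjusted p = 0.00468 and 0.0064; rho = 0.610, p = 0.00036, and 0.492, p = 0.00569; 0.559 and 0.499 without the 2 farthest). Clock then went against Nr1d1 (r = -0.643, p = 7e-05, adjusted 0.0014; rho = -0.621, p = 0.0003; -0.633 without the 2 farthest, -0.601 within control and -0.717 within deltamethrin). Before removal that r was 0.196 (p = 0.291, adjusted 0.436; rho = 0.197, p = 0.288; 0.252 without the 2 farthest). With the mitochondrial rRNA share removed instead, Nr1d1 passed with Cry2 (0.710, adjusted p = 0.0002) and Bhlhe40 (0.707, adjusted p = 0.00015) and with no other clock gene. Per1 then had 0.362, Ciart 0.355 and Dbp 0.356 (each adjusted p = 0.114), Tef 0.153 and Bhlhe41 0.262 (adjusted p = 0.515 and 0.275), and Clock -0.182 (adjusted p = 0.439). GC content was removed from none of these correlations. In the longest transcript it was 56.8% for Nr1d1 and 40.9% for Clock. Of the genes named here with a positive r, Bhlhe41 had 47.5%, Bhlhe40 49.4%, Ciart 52.2%, Tef 53.1%, Cry2 55.6%, Per1 59.4% and Dbp 61.6%. Whether GC content enters these relations was not tested.

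For Nr1d2 the removal brought out Ciart (r = 0.486, p = 0.00524, adjusted 0.0393; rho = 0.508, p = 0.00377; 0.446 without the 2 farthest), Dbp (r = 0.461, p = 0.00878, adjusted 0.0439; rho = 0.452, p = 0.0113; 0.418 without the 2 farthest) and, with a negative sign, Arntl (r = -0.478, p = 0.00655, adjusted 0.0433; rho = -0.558, p = 0.00134; -0.507 without the 2 farthest). Before removal all 3 had the opposite sign and none passed (Ciart -0.158, Dbp -0.286, Arntl 0.072). With the mitochondrial rRNA share removed instead they had -0.045, -0.123 and -0.094, and none passed, so these relations appeared under 1 of the 2 corrections, which are themselves related (r = -0.701). Ciart and Dbp were lower in deltamethrin at an unadjusted p-value under 0.05, and within groups they had r of 0.112 and 0.015 in control and of 0.383 and 0.333 in deltamethrin. Arntl had -0.474 and -0.372. Rora passed only with Clock (r = 0.472, p = 0.00777, adjusted 0.0433; rho = 0.357, p = 0.0498), which came to 0.256 without the 2 farthest libraries and so rested on them. Rorb passed with none of the 15. Removing the mitochondrial rRNA share instead left 19 of 60 clock relations passing, 14 of them among the 19 found before any removal. Of these 19 Rora had 6 and Rorb 8, each with Clock closest (r = 0.887 and 0.844, each adjusted permutation p = 0.00015).

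**Figure D5:**
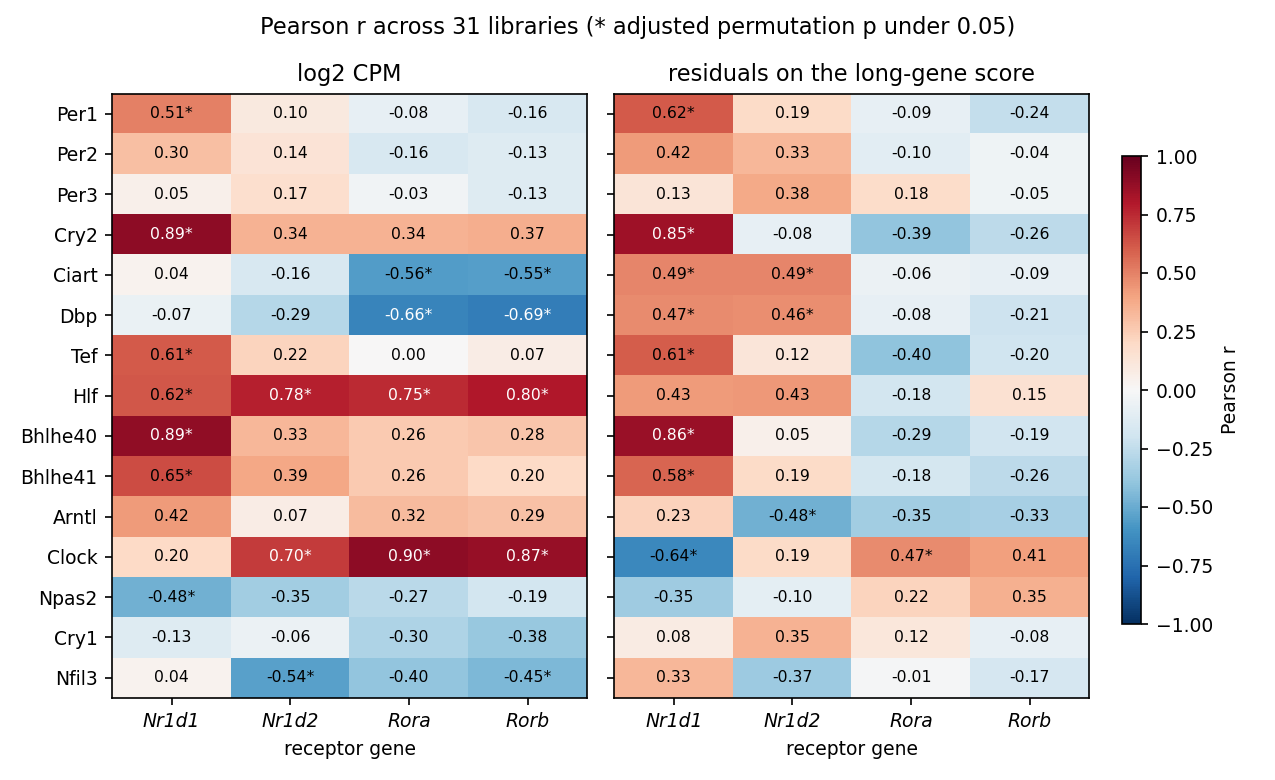
Cells give Pearson r across 31 libraries between each receptor gene (columns) and 15 clock genes (rows), on log2 CPM at the left and after removing the long-gene score at the right, with an asterisk where the adjusted permutation p is under 0.05. The Clock row turns from 0.20 to -0.64 for Nr1d1, and the Dbp cells of Rora and Rorb go from -0.66 and -0.69 to -0.08 and -0.21.

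The genes most like each member over the 31 libraries, of 15038 with named symbols, are given as a description with no p-value. For Nr1d1 they were Atg9a (r = 0.937), Abcg4 (0.918), Apba2 (0.916), Gal3st3 (0.911) and Mast1 (0.910), and the least like were Fastkd2 (-0.895), Efcab7 (-0.888) and Ddx50 (-0.886). The GC content of their longest transcripts was 55.7% to 59.9% for the first 5 and 37.4% to 42.3% for the other 3. For Rora they were the Polycomb gene Phc3 (r = 0.954), the phospholipase gene Plcb4 (0.943), Rnf152 (0.940), the bicarbonate transporter gene Slc4a4 (0.937) and the transcription factor gene Nfia (0.935), with 8532 to 17485 exonic bases. The least like Rora were Cdkn2d (-0.925), Kctd2 (-0.918) and Rprml (-0.917), with 1010 to 3009 exonic bases. For Rorb they were Prkaa2 (0.937), Megf9 (0.936), Slc1a2 (0.930), Rasal2 (0.929) and Cask (0.921), and the least like were Phb2 (-0.926), Mrpl2 (-0.910) and Rnf181 (-0.910). For Nr1d2 they were Zfp354c (0.827), Ap1g1 (0.823), Appbp2 (0.821), Casd1 (0.821) and the glucocorticoid receptor gene Nr3c1 (0.817), and the least like were Necab2 (-0.787), Aprt (-0.765) and Nagk (-0.761). Across 15118 protein-coding genes, the r of a gene with Rora rose with its exonic length (Spearman rho = 0.579 across genes, which are not independent replicates), as did that with Rorb (0.576), Nr1d2 (0.568) and, less, Nr1d1 (0.293). With the GC content of the longest transcript, rho was 0.380 for Nr1d1, -0.200 for Rora, -0.272 for Rorb and -0.267 for Nr1d2, over 15104 genes. What produces the length and GC axes in these libraries was not tested.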

How the data were processed

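Gene-level read counts of 31 libraries of total RNA were deposited by the authors as 1 table of raw counts. Per the submitters' processing notes, Trimmomatic, HISAT2, SAMtools and MultiQC were used with the GRCm38 build. The counting program, the annotation and the use of strand are not given in the sources used here. Library names in the table matched the sample titles, groups came from the agent label, and 0 columns of values were left unused. Of the gene identifiers 48435 (99.3%) matched GENCODE M21, which gave coordinates and exonic length.

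Genes were kept with edgeR's filterByExpr (minimum count 10, minimum total 15) and scaled with TMM factors. Groups were compared with edgeR 4.0.16 (quasi-likelihood test, robust, R 4.3.3) over all genes, with Benjamini-Hochberg adjustment and a threshold of 0.05. Intervals are 95% normal intervals from the SE. The common biological coefficient of variation was 20.2%. Correlations used log2 CPM with a prior count of 2, Pearson's r and Spearman's rho, two-sided tests of 100000 permutations (SciPy 1.17.1) and adjustment within each family of relations. Marker scores were compared with two-sided permutation tests. The fits and tests were tested on simulated data.

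Depth ran from 17570311 to 38680621 counts, which left at least 366 counts of each receptor gene in every library. No pair of libraries had counts that agreed within sampling noise. The receptor genes and all lists were chosen with earlier results of these data known. The genes named were the 4 receptors, genes overlapping them, in each pathway list up to 4 genes of unadjusted p under 0.05 or else the gene of smallest p, and for each receptor the 5 genes of highest and 3 of lowest r. Some genes this rule names are not reported here. Alternatives were other scaling factors, filters and prior counts, DESeq2 1.42.0, limma voom (limma 3.58.1), covariates and leaving out each library. The long-gene and astrocyte covariates were chosen after seeing the data.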

Additional observations from a re-analysis of the deposited data

How the results depend on the processing

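With all alternatives of filter, scaling, tool and covariate, and without each library in turn, 0 of all genes passed after adjustment, and the 4 receptor genes never did. The DESeq2 count was also 0 (smallest adjusted p = 0.0531, 986 genes at an unadjusted p under 0.05). The count at an unadjusted p under 0.05, 853 by edgeR, was 1948 with no count filter and 1796 with the mitochondrial rRNA share as covariate. It ran from 526 (without control replicate 10) to 1389 (without deltamethrin replicate 9), and was also outside 1.5 times without deltamethrin replicates 3 (552), 8 (1383) and 10 (1283) and control replicates 4 (1338), 7 (1346) and 11 (560). Leaving out 1 library at a time gave log2 fold changes from -0.0545 to 0.0373 for Nr1d1, from -0.05 to -0.02 for Nr1d2, from 0.16 to 0.26 for Rora and from 0.11 to 0.21 for Rorb. The sign of Nr1d1 turned without 11 of the 31 libraries. With no scaling factors the median of all genes was 0.04, Nr1d1 was 0.0214 and Nr1d2 0.0107. The long-gene covariate gave -0.011 for Rora and -0.04 for Rorb, and the astrocyte covariate -0.0175 for Rorb.

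With no scaling factors 56 marker and 39 clock relations passed. With the mitochondrial rRNA share removed 5 of 72 marker, 3 of 6 receptor pair and 19 of 60 clock relations passed. With the long-gene score removed 10 marker, 0 receptor pair and 12 clock relations did. With no scaling factors the sign turned for interneurons with Nr1d2 (0.311) and Rorb (0.066), oligodendrocytes with Rorb (0.158) and Nfil3 with Nr1d2 (0.224) and Rorb (0.024). With the mitochondrial share removed it turned for Nr1d1 with olfactory bulb (-0.037), hindbrain (-0.118), astrocytes (-0.273), blood (0.012), Rora (-0.079) and Npas2 (0.209). With the long-gene score removed it turned for astrocytes with Nr1d2 (-0.092) and Rorb (-0.013), interneurons with Rorb (0.182), blood with Rora (0.254) and Rorb (0.208), the mitochondrial share with Rora (0.212) and Rorb (0.264), Nr1d1 with Rora (-0.158) and Hlf with Rora (-0.182). For these the cause was not tested. No paired analysis was possible because numbers given to replicates follow accession order and pair nothing. The lowest count of a receptor gene in a library was 366, and the common biological coefficient of variation over all genes was 20.2%.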

Other observations

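After the long-gene score was removed, the genes most like each receptor over the 31 libraries are given as a description with no p-value. For Rora they were led by Dusp16 (r = 0.773), Pvalb, the parvalbumin gene (0.770), and St18 (0.762), none of which was among its 5 most similar genes before. For Rorb they were led by B4galt2 (0.818), Fmn1 (0.799) and Prr16 (0.781), again none of those named before. For Nr1d2 the list kept Ap1g1 (0.649), Zfp354c (0.647), Appbp2 (0.641) and Casd1 (0.636), and for Nr1d1 it kept Atg9a (0.927).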
